A study of Caenorhabditis elegans with 2 samples.

Results

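The GATA factor genes of the endoderm and epidermis of Caenorhabditis elegans were examined for binding of the transcription factor PHA-4 in L4 larvae. The 10 genes were taken by name and were elt-1, elt-2, elt-3, elt-4, elt-6, elt-7, end-1, end-3, egl-18 and egl-27, out of 19973 protein-coding genes. A region belonged to a gene when its summit, the position of highest signal, lay in the gene body or up to 5000 bp upstream of any annotated transcript 5′ end. These windows held 37 of the 30000 regions in the list called on both replicates together, here called the pooled list. That list keeps background regions on purpose, so a region in it is not by itself evidence of binding.

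PHA-4 binding was measured by chromatin immunoprecipitation followed by sequencing (ChIP-seq) in 1 group of 2 biological replicates. Both came from whole, mixed-sex L4 animals of strain OP37, genotype unc-119(ed3) III; wgIs37, whose insertion carries eGFP-tagged pha-4. The binding measured is that of a tagged protein made from an inserted transgene, and all animals carried it together with the unc-119(ed3) allele. Whole animals hold many tissues, so strong binding in a few cells and weak binding in many cells cannot be told apart, and no region can be assigned to a tissue. With 1 group and no second condition, the values below are descriptions of 1 state and carry no test.

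PHA-4 is the worm FoxA protein, a forkhead factor best known for specifying the pharynx and also active in the intestine. GATA factors are zinc finger proteins that bind the core sequence GATA. In the worm, end-1 and end-3 start the endoderm programme in the embryo, and elt-2 and elt-7 then run intestinal gene expression for life. The gene elt-4 is a short relative of elt-2 with no clear function of its own. In the epidermis, elt-1 gives cells their epidermal fate, elt-3 acts below it in the main body epidermis, and egl-18 and elt-6 act in the seam cells, the stem-like cells of the lateral epidermis. The gene egl-27 differs from the others, since it encodes a chromatin protein related to metastasis-associated (MTA) factors that carries a GATA-type zinc finger and acts in cell polarity and patterning.

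Sequences around some of the summits are shown first, because they differ in which binding sites they hold. Each is 101 bases centred on a pooled summit, on the plus strand of build ce11, which is the WBcel235 assembly, and was read from the RefSeq genome sequence of that assembly. Capitals mark forkhead and GATA sites. A forkhead site was T, then A or G, then TT, then G or T, then A or G, then C or T, and a GATA site was A or T, then GATA, then A or G, each on either strand. The sites of the 2 kinds were counted separately and may overlap. The summits lie at chrV:14012229-14012329 upstream of end-3, chrII:6840942-6841042 in an intron of egl-27, chrII:6831967-6832067 upstream of egl-27, chrII:6836275-6836375 in another intron of egl-27, chrX:10480735-10480835 upstream of elt-2, chrV:4771066-4771166 in an intron of elt-7 and chrX:13938525-13938625 in an intron of elt-3. The sequence upstream of end-3 held neither kind of site, and the other 6 held at least 1 forkhead site. The sequences shown are a selection, and over all 37 pooled summits at these genes 56.8% had a forkhead site. Regions of egl-27 with signals of 17.2 and 15.0 held neither kind and are not shown, though stronger than those of elt-7 and elt-3.
end-3, 2416 bp upstream: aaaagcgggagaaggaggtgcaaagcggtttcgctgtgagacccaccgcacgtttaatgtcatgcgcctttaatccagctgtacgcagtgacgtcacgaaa
egl-27, intron, 5984 bp into the gene: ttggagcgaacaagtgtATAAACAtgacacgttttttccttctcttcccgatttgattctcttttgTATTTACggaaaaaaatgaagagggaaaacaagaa
egl-27, 2991 bp upstream: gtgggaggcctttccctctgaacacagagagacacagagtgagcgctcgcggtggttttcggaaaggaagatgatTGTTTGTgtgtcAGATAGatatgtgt
egl-27, intron, 1317 bp into the gene: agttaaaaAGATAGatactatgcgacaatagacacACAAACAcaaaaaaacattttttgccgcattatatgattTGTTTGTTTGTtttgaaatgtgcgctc
elt-2, 455 bp upstream: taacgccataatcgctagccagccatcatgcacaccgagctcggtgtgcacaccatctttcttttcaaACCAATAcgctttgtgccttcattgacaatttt
elt-7, intron, 446 bp into the gene: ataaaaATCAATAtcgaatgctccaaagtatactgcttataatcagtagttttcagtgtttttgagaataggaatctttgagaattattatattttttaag
elt-3, intron, 3701 bp into the gene: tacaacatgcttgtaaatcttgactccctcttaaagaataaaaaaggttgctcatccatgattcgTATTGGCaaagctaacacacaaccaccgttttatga

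The strength of a region is the signal the authors deposited for it, whose scale is not stated, so it was also given as a rank within its list, with rank 1 the highest. The pooled list ran from a signal of 2.42 to 225.9 with a median of 5.07, and it keeps background regions on purpose. The list thresholded by irreproducible discovery rate (IDR), a measure of how well the ranks of regions hold up between replicates, had 1484 regions, and the lowest signal among them was 25.9. They were the strongest 1484 of the pooled list, so being in the IDR list did not by itself show a high signal in both replicates. Replicate 1 had 21039 regions of its own and replicate 2 had 20807. The files hold no read counts, so the depth of the libraries is unknown. A pooled region was matched to a replicate's highest region whose summit lay no more than 150 bp away, and that region gave the replicate's value.

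The regions were spread unevenly over the 10 genes. Only end-3 and egl-27 had an IDR summit in their window, 2 of 10 genes, while 12.7% of all protein-coding genes had one. With the addition of elt-2, 3 of 10 genes had a summit among the strongest 6000 pooled regions, which reach down to a signal of 11.4, against 36.2% of all genes. All but end-1 had some pooled summit, 9 of 10 genes, against 75.3% of all genes. The replicates' own lists placed a summit at 8 of 10 genes in replicate 1 and at 9 of 10 in replicate 2, against 67.9% and 69.3% of all genes. None of these counts stood far from the share over all genes. The count of 2 rests on both libraries, since the strongest 1484 regions of replicate 1 alone included only egl-27 and those of replicate 2 alone included only end-3, 1 gene each.

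**Figure D1:**
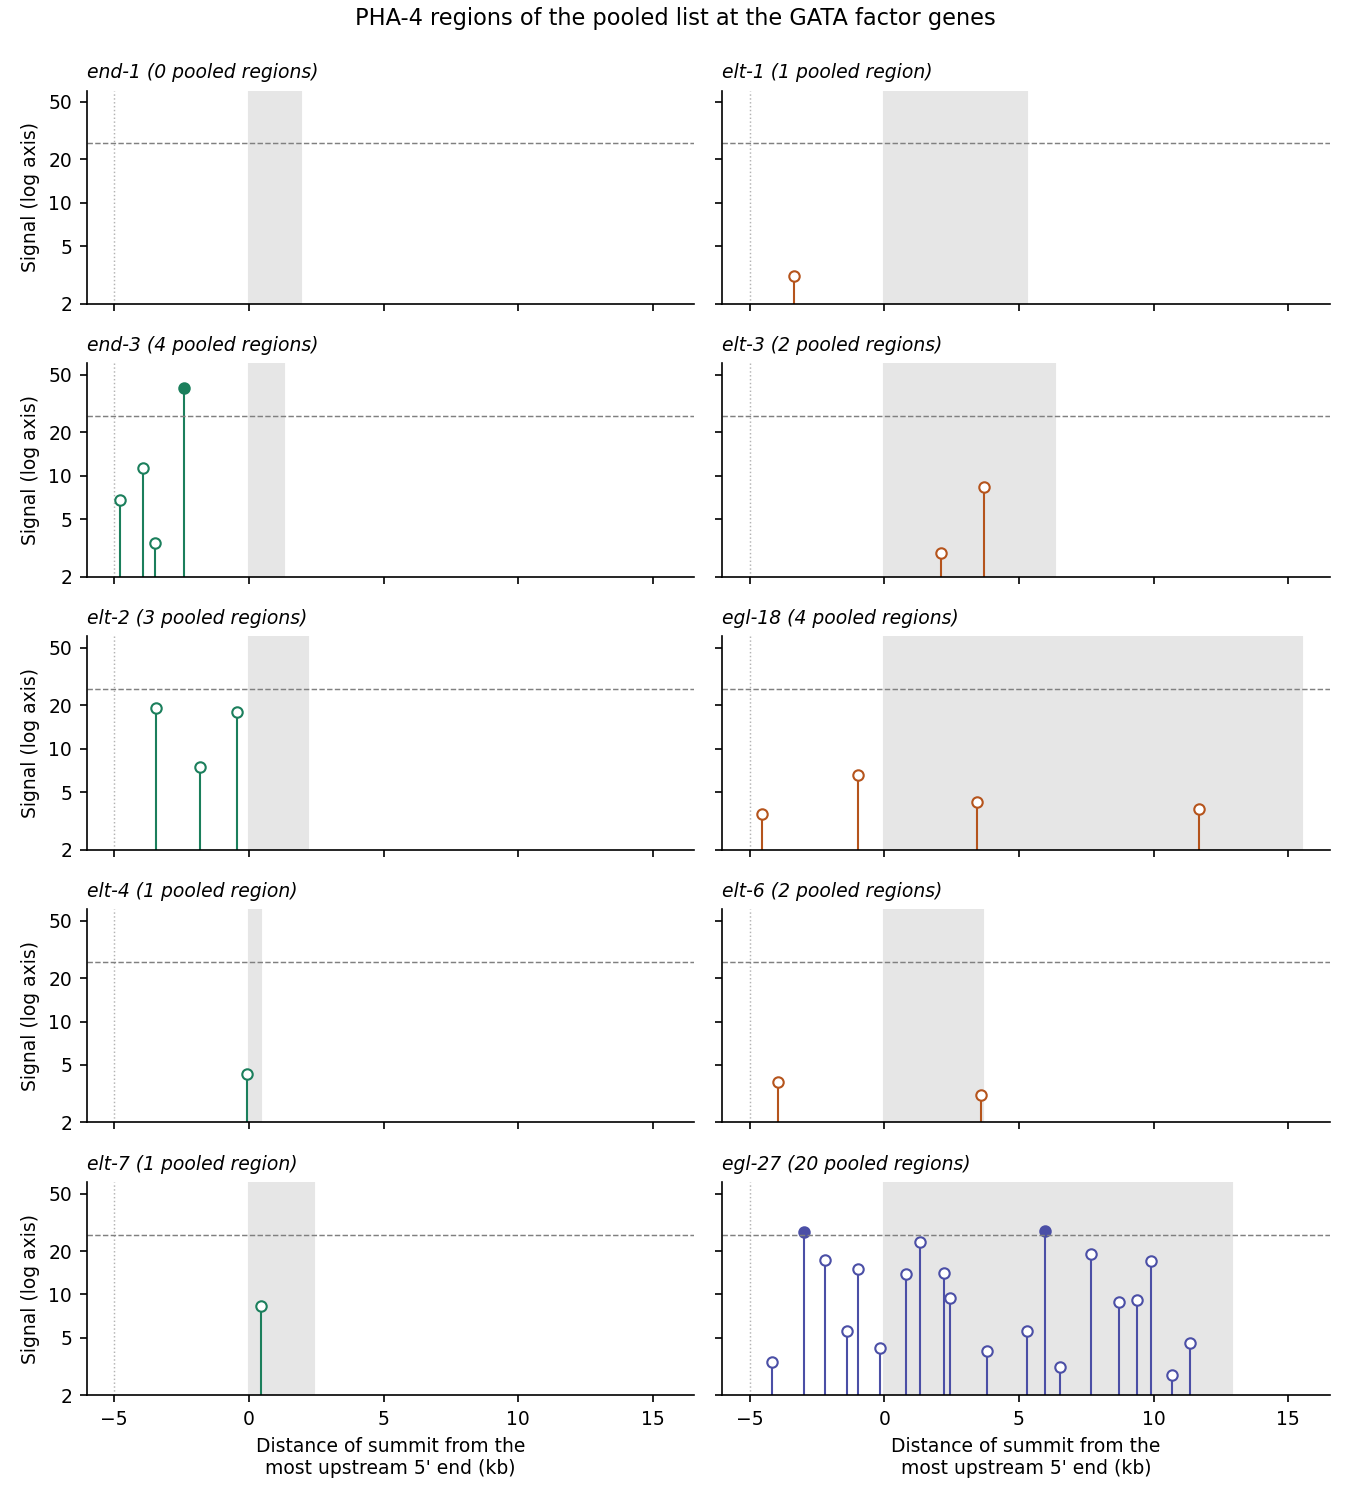
Summits of the pooled list in the window of each gene, plotted by distance from the gene's most upstream 5′ end (kb) and by signal (log axis), with endodermal genes in green, epidermal genes in orange and egl-27 in blue. Grey marks the gene body, the dotted line 5 kb upstream, the dashed line the lowest IDR signal of 25.9, and filled points are IDR regions, of which end-3 has 1 and egl-27 has 2.

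The windows differed in length, from 5.43 kb at elt-4 to 20.52 kb at egl-18, and 3 of 10 were shorter than the median of 7.03 kb over all genes. Across the strongest region of each gene, the order from high to low was end-3, egl-27, elt-2, elt-3, elt-7, egl-18, elt-4, elt-6 and elt-1, with end-1 last. The median rank of the strongest region over the 9 genes was 8767, and over the 15030 genes with a pooled region it was 6543. A region as strong as that of end-3 lay in the windows of 4.05% of all protein-coding genes, one as strong as that of egl-27 in 11.4%, and one as strong as that of elt-2 in 21.4%. For the other 6 genes with a region, that share ran from 43.7% at elt-3 and elt-7 to 69.1% at elt-1. These standings are by window. The strongest summits of end-3 and elt-2 lay nearer the 5′ ends of aip-1 (54 bp) and C39B10.7 (934 bp). Outside egl-27, 11 of 17 regions had a 5′ end of these GATA factor genes as the nearest of any protein-coding gene.

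**Figure D2:**
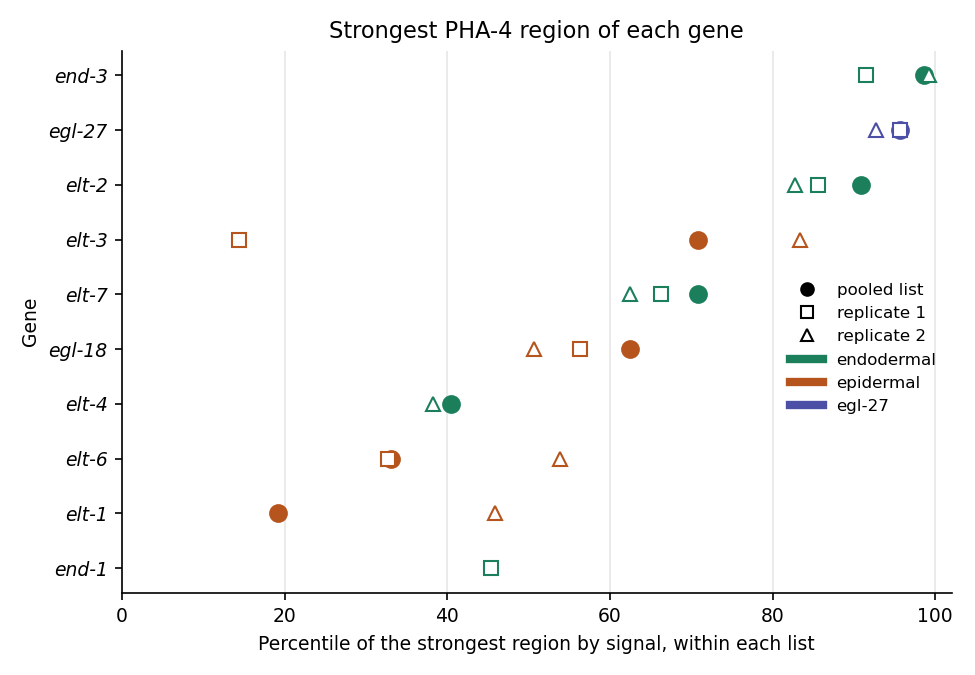
Percentile of the strongest region of each gene within the pooled list (filled circles) and within each replicate's own list (open squares and triangles), where 100 is the highest signal and a missing mark means no region in that list. Each list's strongest region is shown even where its place differs. The 3 lists lie close together and above the 80th percentile for end-3, egl-27 and elt-2, and far apart for elt-3, at 14.3 in replicate 1 and 83.4 in replicate 2.

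Among the genes that start the endoderm, end-3 (WBGene00001311, V:14014695-14015980, plus strand) had the strongest region of all 10 genes, and end-1 (WBGene00001310, V:13985128-13987074, plus strand) had no pooled region. The region at end-3, V:14012124-14012433, had a pooled signal of 40.3 at rank 421. Its signal was 13.4 in replicate 1 (rank 1789) and 25.8 in replicate 2 (rank 158). It was thus high in both replicates, and higher in replicate 2. The summit lay 2416 bp upstream of end-3 but only 54 bp upstream of the 5′ end of aip-1, and it stood in the promoter windows (1000 bp upstream to 200 bp downstream of a 5′ end) of aip-1 and ddx-17. The gene aip-1 encodes an arsenite-inducible zinc finger protein linked to the proteasome, and ddx-17 a DEAD-box RNA helicase. This region was the 1 IDR region of the 10 genes without a forkhead site within 50 bp of the summit, and it had no GATA site there either. Over all 1484 IDR summits, 48.2% had a forkhead site and 15.0% a GATA site, so lacking them is common.

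The other 3 pooled regions at end-3 lay farther upstream, inside ddx-17. The region 3947 bp upstream, V:14010593-14010902, in a coding exon, had a signal of 11.3 (rank 6029), with 3.77 in replicate 1 and 3.93 in replicate 2. The region 4802 bp upstream, in an intron, had a signal of 6.82 and was present in replicate 2 alone, at 8.91. The region 3504 bp upstream, in a coding exon, had a signal of 3.39 and was also present in replicate 2 alone, at 2.70. Closer to end-3 than its IDR region, the pooled list had no summit, while replicate 2 had weak ones 1005 bp and 1390 bp upstream with signals of 4.28 and 2.34 and replicate 1 had one 2006 bp upstream with 3.11. At end-1, which ends 27620 bp before end-3 starts, the 1 region in any list was in replicate 1, with a signal of 3.80 (rank 11498) 4985 bp upstream in the body of eol-1.

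The intestinal regulator elt-2 (WBGene00001250, X:10481240-10483441, plus strand) had 3 pooled regions, all upstream, and the 2 stronger ones were present in both replicates. The region 455 bp upstream, X:10480630-10480939, was the 1 of the 3 in the promoter window. Its signal was 18 in the pooled list (rank 3095), 9.49 in replicate 1 (rank 3429) and 6.60 in replicate 2 (rank 5038), and its summit sequence held 1 forkhead site and no GATA site. The strongest region, X:10477652-10477961, 3433 bp upstream, had signals of 19.3 in the pooled list (rank 2752), 10.2 in replicate 1 and 8.30 in replicate 2. Its summit lay in the 3′ untranslated region of the neighbouring gene C39B10.7, with the forkhead match GTAAACA and the GATA match TGATAA within 50 bp. Replicate 1 was somewhat higher than replicate 2 at both regions. Neither reached the IDR list, whose lowest signal was 25.9.

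The third region of elt-2 and the 1 region of elt-4 resembled each other in sequence. The gene elt-4 (WBGene00001252, X:10475527-10475959, plus strand) ends 5280 bp before elt-2 starts. Its region, X:10475299-10475608, had its summit 73 bp upstream of the 5′ end, with a pooled signal of 4.30 (rank 17869) and 3.18 in replicate 2, and was not in the replicate 1 list. The region 1815 bp upstream of elt-2, X:10479270-10479579, had a pooled signal of 7.44 (rank 9907) and no counterpart in either replicate. Both summit windows held a forkhead match on the minus strand, which reads GCAAACA on the plus strand. When the sequences were laid side by side on that match without gaps, 39 of 50 bases were identical (78.0%), and over a 100-base stretch that starts farther upstream, 70 of 100 were identical (70.0%). Over 100 bases extended downstream from the same start as the 50, 58 of 100 were identical (58.0%), so the likeness was lower on that side. The 50-base stretches, chrX:10479426-10479475 and chrX:10475404-10475453, are shown with identical bases in capitals. This pair was singled out after its values and sequences were seen, and the regions are weak.
elt-2, 1815 bp upstream: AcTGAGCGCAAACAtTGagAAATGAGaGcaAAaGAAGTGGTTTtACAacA
elt-4, 73 bp upstream: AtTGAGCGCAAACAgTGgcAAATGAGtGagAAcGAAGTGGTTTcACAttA

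The gene elt-7 (WBGene00015981, V:4770670-4773086, plus strand), which acts beside elt-2 in the intestine, had 1 pooled region, V:4770961-4771270, in an intron 446 bp into the gene. Its signal was 8.29 (rank 8767), with 5.69 in replicate 1 (rank 7100) and 2.40 in replicate 2 (rank 17559). Replicate 2 had a stronger region at another place, 44 bp into the gene, with a signal of 4.75 (rank 7806). The replicates therefore differed in where they placed the highest signal at elt-7. The 1 forkhead site lay near the edge of the window.

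At the epidermal genes elt-1, elt-3, egl-18 and elt-6, 8 distinct pooled regions lay in the 4 windows, with signals from 2.91 to 8.29. The strongest regions of elt-3 and egl-18 were above the pooled median of 5.07, and that of elt-3 was level with the one of elt-7. None of the 4 genes had a region among the strongest 6000, which 36.2% of all genes had, so 0 of 4 is not a result about epidermal genes. The gene elt-1 (WBGene00001249, IV:9614995-9620280, plus strand) had 1 region, IV:9611483-9611792, 3357 bp upstream, with a signal of 3.13 (rank 24268) and no counterpart in either replicate. It held 1 GATA and 1 forkhead site. Replicate 2 had a region elsewhere, 1019 bp upstream, with 3.55, and replicate 1 had none in the window.

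The gene elt-3 (WBGene00001251, X:13934874-13941216, plus strand) showed the widest gap between replicates among the genes whose strongest region was in both. Its stronger region, X:13938420-13938729, lay in an intron, 168 bp upstream of the 5′ end of a shorter transcript. The pooled signal was 8.29 (rank 8761), with 8.45 in replicate 2 (rank 3454) and 2.41 in replicate 1 (rank 18027). The other region, X:13936822-13937131, 2103 bp into the gene, had a signal of 2.91 (rank 25893), no counterpart in either replicate, and a GATA site but no forkhead site. It was the 1 of 37 summits with a GATA site alone.

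The seam cell genes egl-18 (WBGene00001186, IV:1902322-1917840, plus strand) and elt-6 (WBGene00001253, IV:1917977-1921643, plus strand) are neighbours with 136 bp between them, so their windows overlap. The strongest region at egl-18, IV:1901185-1901494, lay 982 bp upstream with 1 GATA and 1 forkhead site. Its signal was 6.60 (rank 11276), with 4.02 in replicate 1 and no region there in replicate 2. A region in an intron 3442 bp into egl-18 had a signal of 4.27 and was present in replicate 1 alone, at 4.60. The region IV:1913861-1914170, in a coding exon of egl-18 and 3961 bp upstream of elt-6, counted for both genes, with a signal of 3.83 (rank 20084) and 2.34 in replicate 1 alone. A region 4528 bp upstream of egl-18, at 3.52, and the second region of elt-6, in its own 3′ untranslated region at 3.09, were present in replicate 2 alone, with 3.84 and 4.06. None of the 5 regions at this gene pair was in both replicates.

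The gene egl-27 (WBGene00001194, II:6835008-6847908, plus strand) held 20 of the 37 regions, or 54.1%, and 2 of the 3 IDR regions. It was the 1 of 10 genes with at least 2 IDR summits, against 1.49% of all protein-coding genes. As many pooled summits as at egl-27 lay in the windows of 0.23% of all genes, a comparison made after its count was seen. Its window is long, at 17.9 kb, with 14 annotated 5′ ends. Among the 421 genes with windows of 16 to 20 kb, the median was 5 pooled summits and the 95th percentile was 14, and 21.4% of these genes had an IDR summit. Per kb of window, egl-27 had 1.12 pooled summits, against a median of 0.245 and a 95th percentile of 0.872 over all genes.

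**Figure D3:**
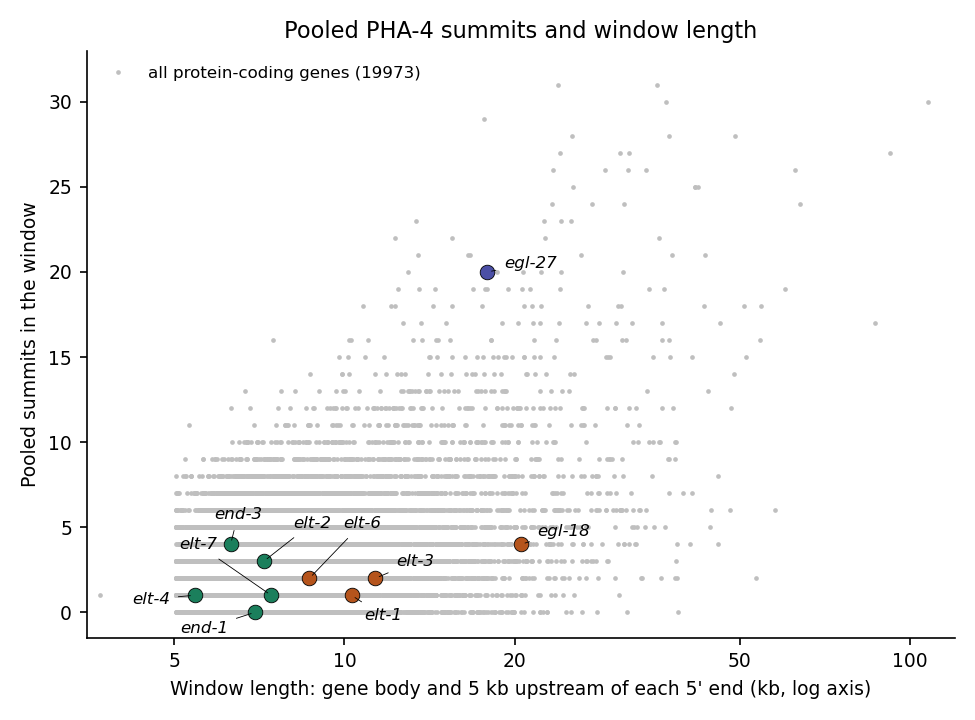
Pooled summits in the window of each protein-coding gene (grey, 19973 genes) against window length (kb, log axis), with the 10 genes in colour as in the map of regions. The gene egl-27, with 20 summits in 17.9 kb, lies above most genes of its window length, and egl-18, with the longest window of the 10 genes, has 4.

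The regions of egl-27 ran along its whole window. Of the 20 summits, 10 lay in introns, 4 in coding exons and 6 upstream of the gene, and 9 were within 500 bp of one of its 5′ ends. The gene has many 5′ ends, and the share of the window in each of these classes was not computed. The counts therefore do not show a preference for any of them. Neighbouring summits were 235 to 1493 bp apart, with a median of 788 bp. The signals ran from 2.78 to 27.5 with a median of 9.35, and 6 of 20 were below the median of the pooled list. At the other 9 genes the median was 6.60, and 8 of 17 regions were below that mark.

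The strongest region of egl-27, II:6840837-6841146, lay in an intron 491 bp upstream of an internal 5′ end. Its signal was 27.5 in the pooled list (rank 1287), 11.7 in replicate 1 (rank 2347) and 12.9 in replicate 2 (rank 1521), so the replicates gave nearly equal signals. Its 2 forkhead sites flanked the summit. The other IDR region, II:6831862-6832171, lay 2991 bp upstream, in the annotated non-coding RNA genes F31E8.7 and F31E8.18, with 1 GATA and 1 forkhead site. Its signal was 27.3 in the pooled list (rank 1326), 17.7 in replicate 1 (rank 906) and 6.63 in replicate 2 (rank 5005), which is a lower value in replicate 2. Both regions lay just inside the IDR list. Just outside it was the region II:6836170-6836479, in an intron 1317 bp into the gene, with 23 in the pooled list (rank 1954), 15.1 in replicate 1 (rank 1336) and 9.75 in replicate 2 (rank 2672). It held 1 GATA and 3 forkhead sites, 2 of which overlap.

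A further 6 regions of egl-27, chosen after their values were seen, stood among the strongest 6000, with pooled signals from 13.9 to 19.0. Replicate 1 had a region at all 6 and replicate 2 at 4 of them. The region 985 bp upstream had 17.4 in replicate 1 (rank 947) and no region within 150 bp in replicate 2. The region 9912 bp into the gene had 12.1 in replicate 1, and replicate 2 placed a summit of 11.2 (rank 2067) at 9752 bp, just beyond the matching distance. Of the 9 strongest regions 7 held a forkhead site, and of the other 11 regions 2 did. A forkhead site lay at 46.0% of the strongest 6000 pooled summits and at 33.4% of all pooled summits. Regions of 1 gene are not replicates, and the difference was not tested.

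Over all 10 genes, 21 of 37 summits, or 56.8% (exact 95% interval 39.5 to 72.9), had a forkhead site within 50 bp. Windows of the same width 500 bp to both sides had one in 17 of 74 cases, or 23%. The share was 33.4% over all pooled summits, with 26.5% in their side windows, and 46.0% over the strongest 6000. At egl-27 it was 45.0% (23.1 to 68.5) and at the other genes 70.6% (44.0 to 89.7), intervals that overlap. The intervals cover the counting of regions alone, and regions of 1 gene are not replicates. At the replicates' own summits in the same windows the share was lower, at 45.9% in replicate 1 and 41.9% in replicate 2.

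A GATA site lay within 50 bp of 10 of 37 summits, or 27% (13.8 to 44.1), against 20.3% in the side windows and 22.5% over all pooled summits. The interval holds both values, but it is wide and covers the counting of regions alone, and 20 of the 37 regions were at egl-27. Whether these genes differ from others in GATA sites was not tested. Of the 10 summits with a GATA site 9 also had a forkhead site, so both kinds lay at 24.3% (11.8 to 41.2) of the summits. Among these 9, the regions at elt-1, 1815 bp upstream of elt-2 and 4162 bp upstream of egl-27 had no counterpart in either replicate. That at elt-6 was in replicate 2 alone and that at egl-18 in replicate 1 alone, and the rest were in both. Over all pooled summits 2468 of the 6736 with a GATA site also had a forkhead site, and both kinds lay at 8.23%. In the windows of the 10 genes, 11 of 290 GATA sites and 26 of 316 forkhead sites were centred within 50 bp of a summit. Each base of overlapping windows was counted once. The 37 summit windows of 101 bases cover only a small part of this sequence, so most sites lie outside them by construction. GATA sites numbered 2.99 per kb of the windows and 2.38 per kb of the genome, and forkhead sites 3.25 and 3.31 per kb.

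**Figure D4:**
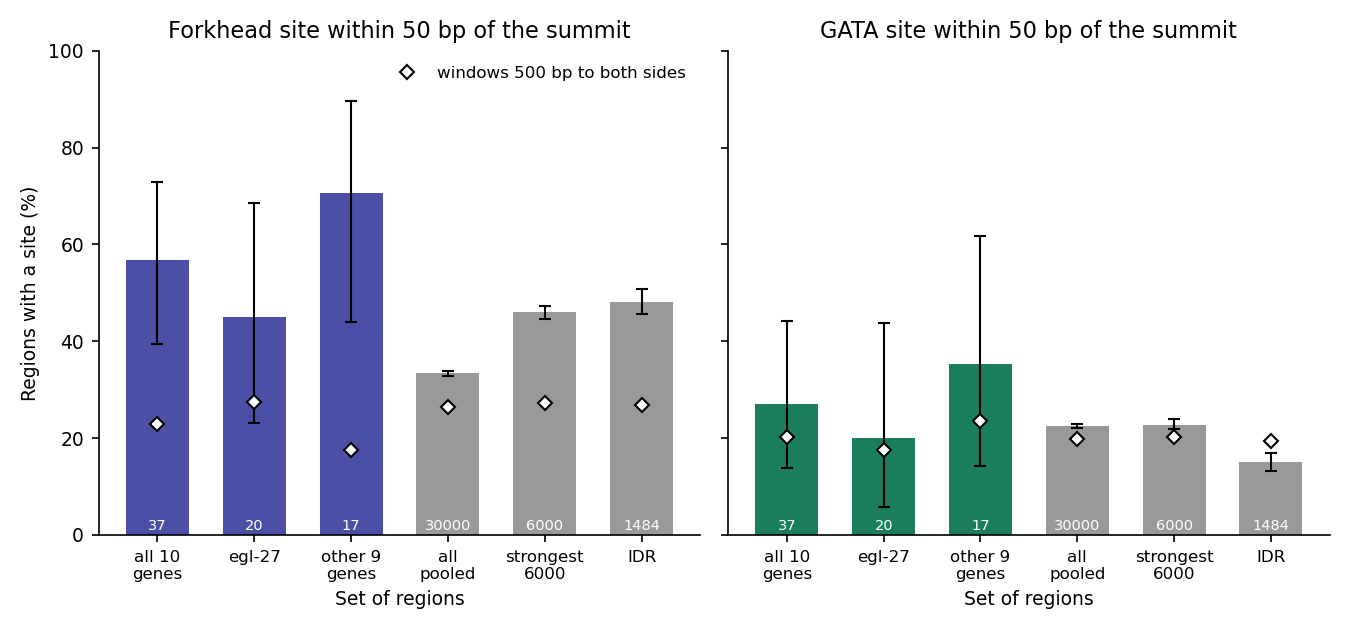
Share of summits (%) with a forkhead site (left) or a GATA site (right) within 50 bp, for the 10 genes, egl-27, the other 9 genes and 3 sets from the whole list, with the number of regions in each bar. Error bars are exact 95% binomial intervals and diamonds the share in windows 500 bp to both sides. The forkhead bars stand above their diamonds, with egl-27's interval reaching below its own, while the GATA intervals of the 10 genes hold theirs.

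Both replicates had a region at 15 of the 37 pooled summits, or 40.5%, while 8 had one in replicate 1 alone, 9 in replicate 2 alone and 5 in neither. Over all pooled summits 25.9% were in both. Among the strongest 6000, 10 of 12 at these genes (83.3%) and 85.0% overall were in both. For the 15 shared regions, the log2 ratio of replicate 1 to replicate 2 had a median of 0.30 and an SD of 0.98. Over all 7769 shared regions the median was 0.13 and the SD 0.94, so the replicate scatter at these genes was of the size seen across the list.

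**Figure D5:**
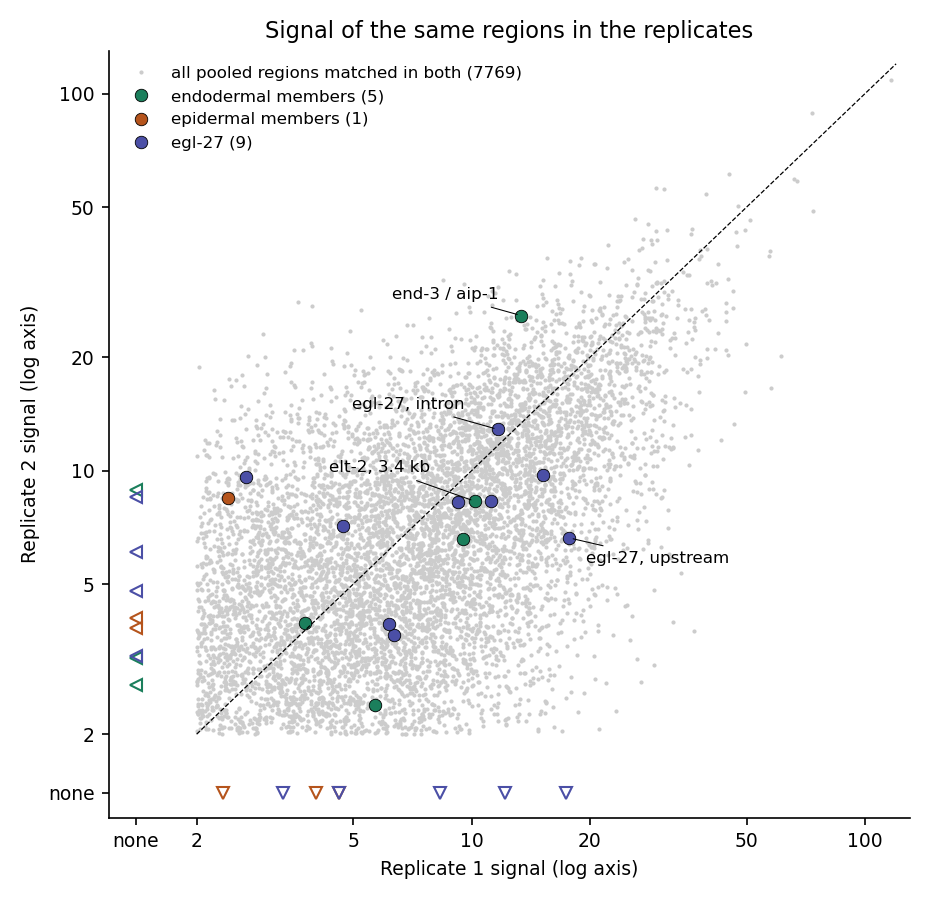
Signal in replicate 2 (vertical, log axis) against signal in replicate 1 (horizontal, log axis) for pooled regions matched in both (grey, 7769) and for those of the 10 genes (endodermal green, epidermal orange, egl-27 blue). Triangles at the margins are regions with no match in 1 replicate, and the dashed line marks equal signal. The 3 IDR regions lie in the upper right, end-3 above the line and the upstream region of egl-27 below it.

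Genes that act with these factors were counted with the same windows, from lists chosen with earlier results known. The other GATA-type zinc finger genes med-1, med-2 and lin-40 had no IDR summit and none among the strongest 6000. In particular lin-40, the close relative of egl-27, had 1 pooled region in 12.81 kb, with a signal of 6.43 (rank 11633). Of 8 genes for chromatin partners of the MTA family, which again include lin-40, 3 had an IDR summit (37.5%) and 5 one of the strongest 6000 (62.5%), against 12.7% and 36.2% of all genes. Their median window was longer, at 9.66 kb against 7.03 kb, and 2 of the 3 share 1 region. Of the 3, lin-53 and rba-1 had shorter windows of 6.57 kb and 6.59 kb, and dcp-66 had a longer one of 11.06 kb. The part of window length in these shares was not tested. The genes lin-53 and rba-1, which encode histone-binding proteins of the retinoblastoma-binding family, shared 1 IDR region of 44.8 in the promoter windows of lin-53 and nra-2, and dcp-66, a subunit of histone deacetylase complexes, had 2, the stronger at 35.7. The region at lin-53 had signals of 33.9 in replicate 1 and 15.1 in replicate 2, and the stronger one at dcp-66 had 25.6 and 11.9.

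Of 10 genes of endoderm specification above the GATA factors, such as the maternal factor skn-1, or of the Wnt pathway, 1 had an IDR summit (10%). A summit among the strongest 6000 lay at 5 (50%). Over all genes the shares were 12.7% and 36.2%. The median window was 9.81 kb for these 10 genes and 7.03 kb over all genes. The IDR summit was that of mom-5, a Frizzled receptor, with a signal of 40.1, and it lay in the promoter window of algn-10. The 16 intestinal genes, many of them known targets of ELT-2, had a median window of 8.625 kb. Of these, 7 had one of the strongest 6000 (43.8%, against 36.2% of all genes). An IDR summit lay at 4 of the 16 (25%, against 12.7%). These were act-5, an actin of microvilli, at 26.8, the membrane linker erm-1 at 34.2, the sphingosine phosphate lyase gene spl-1 at 31.7 in the promoter window of rps-24, and eps-8, for an actin-capping protein, at 33.9. All 4 were present in both replicates, with signals from 10.2 to 20.

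Of 10 epidermal regulators 1 had an IDR summit (10%), lin-29, a zinc finger factor of the larva-to-adult switch, at 29.5, with 7.44 in replicate 1 and 20.6 in replicate 2. The strongest 6000 reached 3 of 10 (30.0%). Of 10 epidermal structural genes 1 had an IDR summit, the junction gene ajm-1, with 2 of them in a window of 35.67 kb and the stronger at 39.0, and 2 had one of the strongest 6000 (20%). Over all genes the shares were 12.7% for an IDR summit and 36.2% for the strongest 6000. Median windows were 10.47 kb for the regulators and 6.63 kb for the structural genes, against 7.03 kb over all genes. All these lists are short, so 1 gene moves a share by at least 6 points, and none was tested.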

How the data were processed

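The deposited files were region lists in narrowPeak layout. Per the deposited manifests, the authors called each replicate's list, and the pooled list on both replicates, against a control that was not analysed here. Sources used here name neither the peak caller nor the IDR cutoff. Signal means the authors' deposited value of column 7, on an unstated scale, and the deposited −log10 q value has a shared maximum (4.10 in the pooled list), so regions were ranked by signal. No column of other samples was used.

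Windows came from Ensembl release 115 for WBcel235. Sites were sought within 50 bp of each summit on ce11. Computations used Python 3.11.15 (SciPy 1.17.1, pandas 2.3.3, NumPy 2.4.6, matplotlib 3.10.9). Site search and windows were tested on simulated data. Regions named singly are the IDR regions and the strongest 3 of each gene, and any others were singled out after their values were seen. Alternatives were other windows, depths, site sequences and matching distances, and each replicate alone. The 10 genes and the lists were chosen with earlier results of these data known. The labels call the replicates biological and say nothing of cultures, and they name both PHA-4 and its eGFP-tagged form as the target.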

Additional observations from a re-analysis of the deposited data

How the results depend on the processing

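The count of 2 genes with an IDR summit fell to 1 with the upstream reach set at 2000 bp or 1000 bp, or with the stronger part of the IDR list, and was 1 for each replicate alone. It stayed at 2 in upstream sequence alone, by overlap of at least 1 bp, and with 10000 bp upstream and 5000 bp downstream, an alternative chosen after seeing the data. The count of 3 among the strongest 6000 became 5 at 10000 regions and lay between 2 and 4 otherwise. The 37 summits fell to 13 at a signal of 10 or more, to 17 without egl-27 (also chosen after seeing the data), and to between 25 and 37 otherwise. The share with a GATA site, 27%, was 10.8% within 25 bp, 48.6% within 100 bp, 33.3% among the strongest 6000, 48.6% for GATA alone, 5.4% for GATAAG, 35.3% without egl-27, and 29.0% to 32.4% with 1 replicate left out. The forkhead share, 56.8%, was 40.5% within 25 bp, 70.3% within 100 bp, 75% among the strongest 6000, 37.8% with T as the fifth base, 2.7% for TGTTTAC, 70.6% without egl-27, and 41.9% to 45.9% with 1 replicate left out. A wider window holds more sites by construction, and the cause of the other shifts was not tested. The share in both replicates, 40.5%, ran from 29.7% to 51.4%. For single genes, 16 alternative values of the strongest signal or its percentile were within the replicate spread and 14 were not, counting elt-1 and elt-4 percentiles, which have no spread since replicate 1 has no region there. Many of the 16 are the same region found again in a shorter window. The alternative percentiles are those of the replicates that set the spread, so the tally does not measure how stable the values are. With 2000 bp or 1000 bp upstream, elt-1 and end-3 had no pooled region, so no value could be given. No paired analysis was possible because the study has 1 group. Unknown depth limits what a missing region means.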

Other observations

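Beyond the windows, from 5000 to 10000 bp upstream and up to 5000 bp downstream of each gene, no IDR region was found, and 24 further pooled regions lay outside every window. The gene egl-27 had 11 of them. The strongest, 7387 bp upstream, had a signal of 21.9 (rank 2158), with 6.49 in replicate 1 and 17.1 in replicate 2, and no forkhead or GATA site within 50 bp. The next, 4276 bp past the end of egl-27, had a signal of 20.5 (rank 2432), with 5.93 and 11.5 in the replicates, and lay 52 bp upstream of C04A2.15.

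Upstream of end-3 by 5959 bp, a region with a signal of 18.3 (rank 3025) held 3 forkhead sites, with 5.83 in replicate 1 and 7.30 in replicate 2. The gene elt-3 had 8 regions, of which the strongest, 3718 bp past its end, had a signal of 11.4 (rank 5955), with 5.77 in replicate 1 and 2.06 in replicate 2. No region outside every window was found at elt-2, elt-4, elt-7 or end-1.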
